A study of Sus scrofa with 2 samples.

Results

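The genes of antioxidant defence and detoxification were described in endometrium taken from Yorkshire pigs at day 18 of pregnancy (YK18). The 49 genes were chosen by name and not by a cut on their values, but with earlier results of these data known. Their rows were found in the deposited table through the RefSeq accession of each transcript. The version number was ignored and the rows of a gene were summed. Of the 49 genes, 39 had at least 1 matched row, out of 11071 genes matched in the whole table. The other 10, NQO2, GPX7, GSTP1, GSTK1, MGST1, PRDX1, SLC7A11, ABCC1, MAFG and CUL3, had no matched row and were not analysed here. The study collected endometrium, the inner lining of the uterus, from 2 artificially inseminated Yorkshire pigs slaughtered on this day, after each uterine horn had been flushed, and 1 RNA-seq library of each pig is replicate 1 and replicate 2 below. Both pigs came from a commercial herd and received no treatment that the sources name. The Yorkshire pigs of the later day and the Meishan pigs were not analysed here, so the only comparison is between the 2 pigs of 1 condition, and no test between conditions was made.

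NRF2, the product of NFE2L2, is a transcription factor that KEAP1 and CUL3 hold at a low level by marking it for degradation. Oxidants and electrophiles modify KEAP1, and NRF2 then pairs with a small MAF protein such as MAFK or MAFG and binds antioxidant response elements in its target genes. The targets make glutathione, reduce thioredoxin and quinones and supply NADPH, which both the glutathione and the thioredoxin systems need. The study placed NRF2 upstream of AKR1C1, a reductase that inactivates progesterone, which is the reason to look at the level of this chain in the endometrium.

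The values are RPKM, the reads of a transcript per kilobase of the length used and per 1000000 reads of the library. The steps of low values gave the reads behind them, with library totals of 7466979 reads for replicate 1 and 7023108 for replicate 2. These reads are the smallest whole numbers that both libraries allow, so intervals based on them are, if anything, too wide, and they cover counting error only. A gene at 0 is described as listed at 0, since the zeros of this table include broadly expressed genes, such as SOD1. Of the genes listed as endometrial epithelium markers, 7 of the 8 with a row were above 0 in both libraries, among them EPCAM and CDH1, while KRT8 was listed at 0. PGR and ESR1, also among those above 0, are not particular to epithelium. The libraries differed in other cell type markers. The 14 skeletal muscle genes with a row summed to 565 reads for replicate 1 and 16 for replicate 2, with 9 higher in replicate 1, and TNNT1, TNNT3, MYL2, MYBPC1 and ATP2A1 listed at 0 in both. The 6 erythrocyte genes summed to 4383 and 9789 reads, nearly all from HBB, with ALAS2 listed at 0. The 9 leukocyte genes summed to 1910 and 3069 reads, with CD3D listed at 0, and the 5 stromal genes to 57157 and 33942 reads, most of them from COL3A1. In whole tissue, fewer cells of a type and less RNA per cell cannot be told apart.

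Most of the antioxidant genes with a row had reads in both pigs, and many were abundant. Of the 39 genes, 30 were above 0 in both libraries (76.9%, against 63.1% of all genes), 3 in 1 library and 6 in neither. At least 100 RPKM was reached in both libraries by 18 of the 39 genes (46.2%), against 22.3% of all genes, and at least 1000 RPKM by 8 (20.5%), against 4.25%. Over the 30 genes whose mean reached 1 RPKM the median was 266.4 RPKM for replicate 1 and 291.3 RPKM for replicate 2, where the median of the means was 271.7 RPKM for these genes and 49.1 RPKM for all 6476 genes past the same minimum. Together the antioxidant genes made up 0.576% of all RPKM summed for replicate 1 and 0.583% for replicate 2. In RPKM the thioredoxin genes held the largest summed level of the 9 functional groups and the glutathione transferases the smallest. The last place covers only 5 of the 9 genes of the transferase and export group, since 4 had no matched row, and 2 of the 5 were listed at 0. The first place rests on TXNIP and TXN, whose recovered lengths were 29 nt and 28 nt. In recovered reads the thioredoxin genes, with 3796 and 3882, were below the dismutases with catalase (7948 and 5165), the peroxiredoxins (4857 and 6758) and the NADPH supply group (6337 and 4699).

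**Figure D1:**
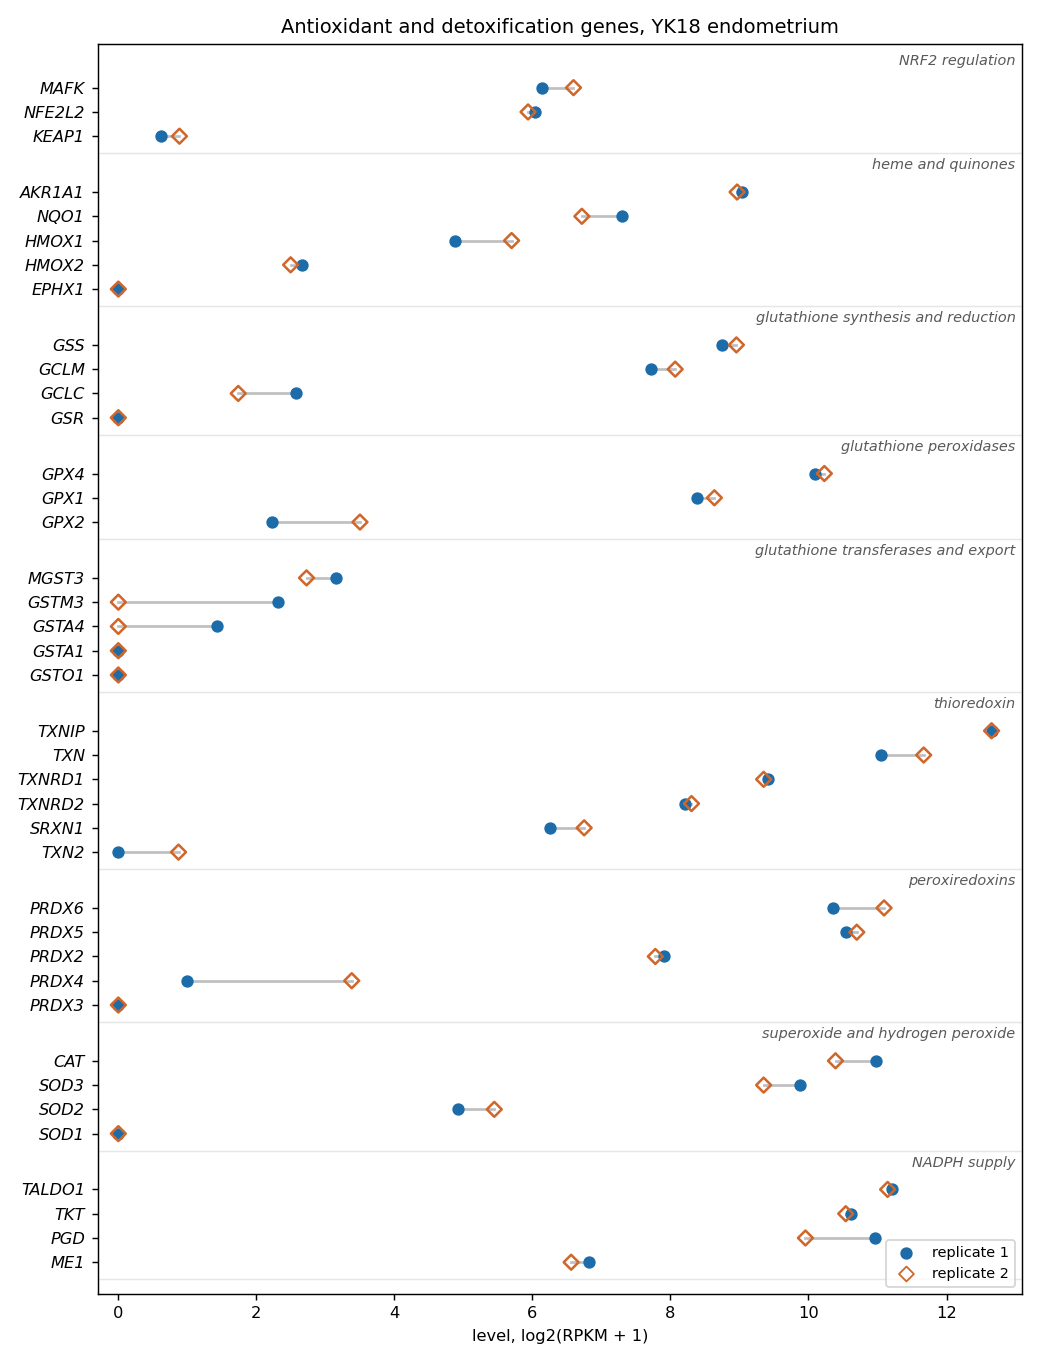
Level of the 39 antioxidant and detoxification genes with a matched row, as log2(RPKM + 1), grouped by role; filled circles are replicate 1, open diamonds replicate 2, and a grey line joins the 2 pigs. TXNIP stands highest in both libraries, and 6 genes (EPHX1, GSR, GSTA1, GSTO1, PRDX3 and SOD1) are listed at 0 in both.

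The NRF2 chain itself was found at modest levels. NFE2L2 was at 64.8 RPKM in replicate 1 and at 60.2 RPKM in replicate 2, a mean of 62.5 ± 3.20 RPKM (SD, n = 2 pigs). This level came from 3 transcripts, all with reads in both libraries, of which XM_003133500.4 was at 29.4 and 23.3 RPKM, XM_003483682.2 at 22.4 and 20.4 RPKM, and XM_005671981.1 at 12.9 and 16.6 RPKM. MAFK, the small MAF partner, was at 69.7 RPKM in replicate 1 and at 95.7 RPKM in replicate 2, so that its lowest value was above the highest of NFE2L2. KEAP1, the sensor, was at 0.531 RPKM in replicate 1 and at 0.848 RPKM in replicate 2, from 2 and 3 reads of XM_005654811.1, while its second transcript, NM_001114671.1, was listed at 0. A count of this size does not allow a comparison of the pigs.

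Among the enzymes of heme, quinones and aldehydes, AKR1A1, an aldehyde reductase of the family of AKR1C1, was the most abundant. It was at 522.8 RPKM in replicate 1 and at 498.9 RPKM in replicate 2, and the interval of the ratio held 1. NQO1, which reduces quinones without releasing radicals and is a classical NRF2 target, was at 156.6 RPKM in replicate 1 and at 104.1 RPKM in replicate 2, from 331 and 207 reads. HMOX1, the inducible heme oxygenase, was lower in level and had the opposite direction, at 28.4 RPKM in replicate 1 and at 50.9 RPKM in replicate 2, from 67 and 113 reads. The ratio of replicate 2 to replicate 1 was 0.665 for NQO1 (95% exact binomial interval 0.556 to 0.793) and 1.79 for HMOX1 (1.31 to 2.46), so these intervals do not overlap. HMOX2, the constitutive heme oxygenase, was at 5.34 and 4.64 RPKM, from 11 and 9 reads. In replicate 1 HMOX1 was thus 5.32 times and in replicate 2 10.97 times the level of HMOX2. EPHX1, microsomal epoxide hydrolase, was listed at 0 in both libraries.

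For glutathione synthesis, the subunits of the first enzyme were listed at very different levels. GCLM, the modifier subunit of glutamate-cysteine ligase, was at 209.0 RPKM in replicate 1 and at 267.4 RPKM in replicate 2, from 1127 and 1356 reads. GCLC, the catalytic subunit of the same enzyme, was at 4.94 RPKM in replicate 1 and at 2.33 RPKM in replicate 2, from 9 and 4 reads. GCLM was therefore 42.3 times the level of GCLC in replicate 1 and 114.6 times in replicate 2, where the 4 reads of GCLC limit the ratio. In recovered reads the ratios were 125.2 and 339.0, at recovered lengths of 722 nt for GCLM and 244 nt for GCLC. GSS, which completes glutathione, was at 430.2 RPKM in replicate 1 and at 495.4 RPKM in replicate 2. GSR, which returns oxidised glutathione to the reduced form, was listed at 0 in both.

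The glutathione peroxidases formed an order that was the same in both pigs in RPKM, but not in recovered reads. GPX4, which reduces lipid peroxides in membranes, was at 1094.6 RPKM in replicate 1 and at 1199.6 RPKM in replicate 2. GPX1, the general cytosolic form, was at 331.8 RPKM in replicate 1 and at 396.9 RPKM in replicate 2. GPX2, the epithelial form and an NRF2 target, was at 3.68 RPKM in replicate 1 and at 10.3 RPKM in replicate 2, from 11 and 29 reads. In RPKM, GPX4 was 3.30 and 3.02 times the level of GPX1, at recovered lengths of 127 nt and 400 nt, which are the smallest that allow whole reads. In recovered reads the ratios were 1.05 in replicate 1 and 0.960 in replicate 2, so their order was not the same in both pigs.

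The glutathione transferases, which join glutathione to electrophiles, were listed with few reads or none. GSTP1, GSTK1 and MGST1, and the exporter ABCC1, had no matched row. MGST3, a microsomal form, was the only gene of this group above 0 in both libraries, at 7.93 RPKM in replicate 1 and at 5.62 RPKM in replicate 2, from 9 and 6 reads. GSTM3 had 3 reads in replicate 1, at 3.98 RPKM, and none in replicate 2. GSTA4 had 1 read in replicate 1, at 1.70 RPKM, and none in replicate 2, and its second transcript was listed at 0. GSTA1 and GSTO1 were listed at 0 in both. These zeros set no limit on the level, since the table also lists SOD1 at 0. For MGST3 and GSTM3 no difference between the pigs was detectable at these counts.

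The thioredoxin system stood at the other end of the range. TXNIP, which binds thioredoxin and restrains it and also limits glucose uptake, had the highest level of all members and hardly differed between the pigs, at 6497.6 RPKM in replicate 1 and at 6436.9 RPKM in replicate 2, or 6467 ± 42.9 RPKM (SD, n = 2). TXN, cytosolic thioredoxin, was at 2118.8 RPKM in replicate 1 and at 3254.6 RPKM in replicate 2, from 443 and 640 reads. TXNIP was 3.07 times the level of TXN in replicate 1 and 1.98 times in replicate 2. TXNRD1, the cytosolic reductase of thioredoxin, was at 681.7 RPKM in replicate 1 and at 651.7 RPKM in replicate 2. TXNRD2, the mitochondrial reductase, was at 295.2 RPKM in replicate 1 and at 315.2 RPKM in replicate 2. For both reductases the interval of the ratio between the pigs held 1. SRXN1, sulfiredoxin, which repairs overoxidised peroxiredoxins and is an NRF2 target, was at 75.3 RPKM in replicate 1 and at 106.6 RPKM in replicate 2. TXN2, mitochondrial thioredoxin, had no reads in replicate 1 and only 2 in replicate 2, at 0.830 RPKM.

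Of the peroxiredoxins, which use thioredoxin or glutathione to reduce peroxides, PRDX5 and PRDX6 made up most of the listed level. PRDX1 had no matched row, so shares within the whole family are not known. PRDX6, the form with a single catalytic cysteine, was at 1310.6 RPKM in replicate 1 and at 2186.0 RPKM in replicate 2, from 3249 and 5097 reads. PRDX5, found in mitochondria, peroxisomes and cytosol, was at 1497.7 RPKM in replicate 1 and at 1661.9 RPKM in replicate 2. Among the peroxiredoxins with a row, PRDX5 was thus the highest in replicate 1, with 49.2% of their summed RPKM, and PRDX6 in replicate 2, with 53.6%. In recovered reads PRDX6 was first in both, at 2.22 and 3.33 times PRDX5, with recovered lengths of 332 nt and 131 nt. PRDX2, a cytosolic form that is abundant in erythrocytes, was at 237.7 RPKM in replicate 1 and at 218.9 RPKM in replicate 2, with a ratio of 0.921 (95% exact binomial interval 0.717 to 1.18). The summed reads of the erythrocyte markers were higher in replicate 2, and their part in the level of PRDX2 was not tested. PRDX4, the form of the endoplasmic reticulum, was at 0.985 RPKM in replicate 1 and at 9.42 RPKM in replicate 2, from 1 and 9 reads, and PRDX3, the mitochondrial form, was listed at 0.

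The superoxide dismutases and catalase showed the extracellular and peroxisomal enzymes at high levels. CAT, catalase, was at 2013.3 RPKM in replicate 1 and at 1342.1 RPKM in replicate 2, from 2721 and 1706 reads. SOD3, the secreted dismutase of the extracellular matrix, was at 940.4 RPKM in replicate 1 and at 651.6 RPKM in replicate 2, from 5154 and 3359 reads. Both genes were higher in replicate 1, as were the summed reads of the stromal and the skeletal muscle markers, whose part in the result was not tested. The stromal sum rests on COL3A1, and 2 of the 5 stromal markers, VIM and DCN, were higher in replicate 2. SOD2, the mitochondrial dismutase, was at 29.3 RPKM in replicate 1 and at 42.6 RPKM in replicate 2, so that SOD3 was 32.1 and 15.3 times its level. SOD2 is also induced in activated leukocytes, and 7 of the 9 leukocyte markers with a row were higher in replicate 2. The median ratio of all genes was itself 1.06, and the intervals of CD14, CSF1R and NKG7 held 1. CD163 went the other way, with a ratio of 0.598 (0.359 to 0.978). The part of leukocytes in the level of SOD2 was not tested. SOD1, the cytosolic dismutase, was listed at 0 in both libraries.

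The genes grouped under NADPH supply were all above 0 in both pigs. TALDO1 and TKT, transaldolase and transketolase, belong to the non-oxidative arm of the pentose phosphate pathway and do not make NADPH themselves. They varied little, at 2359.6 and 2265.8 RPKM for TALDO1 and 1564.9 and 1487.3 RPKM for TKT. PGD, which makes NADPH in the oxidative arm of this pathway, was at 1995.7 RPKM in replicate 1 and at 992.1 RPKM in replicate 2, from 2280 and 1066 reads. PGD was therefore 0.846 times the level of TALDO1 in replicate 1 and 0.438 times in replicate 2. ME1, cytosolic malic enzyme, was at 111.7 RPKM in replicate 1 and at 93.4 RPKM in replicate 2.

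Between the pigs, 4 of the 30 antioxidant genes with a mean of at least 1 RPKM were at least 2-fold apart on the log2(RPKM + 1) scale, which adds 1 to each value and so understates the fold of low genes. This is 13.3% of them, against 10.7% of all 6476 genes. GPX2 and PRDX4 were higher in replicate 2, a direction taken by 7.49% of all genes, and PGD and GSTM3 were higher in replicate 1, a direction taken by 3.17%. GPX2 was 2.80-fold higher in replicate 2 (95% exact binomial interval 1.36 to 6.22). PRDX4 had a ratio of 9.57, with an interval from 1.33 to 419.4 because replicate 1 had 1 read. PGD was 2.01-fold higher in replicate 1 (1.87 to 2.17), and it was the only gene past 2-fold among the 24 with at least 100 reads in the libraries together, where 3.48% of all genes with that depth were past it. GSTM3, with 3 and 0 reads, gave no fold.

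With counting error as the yardstick, 17 of the 30 antioxidant genes (56.7%) had an interval of the ratio that left out 1, against 31.0% of all genes. The interval narrows with depth, and 24 of the 30 antioxidant genes had at least 100 reads against 3768 of all 6476 genes. Among genes with at least 100 reads in the libraries together, it left out 1 for 15 of 24 antioxidant genes (62.5%) and for 44.7% of all genes. Depth was not matched above this cut, and the lowest of the 24 had 173 reads. The higher share is therefore not shown to be a trait of the antioxidant genes. Of the 17 genes, 13 were higher in replicate 2 and 4 in replicate 1. With at least 100 reads these were 11 and 4 of 24, where 25.7% of all genes were higher in replicate 2 and 19.0% in replicate 1. The 13 were PRDX4, GPX2, HMOX1, PRDX6, TXN, SOD2, SRXN1, MAFK, GCLM, GPX1, GSS, PRDX5 and GPX4, and the 4 were PGD, CAT, NQO1 and SOD3. PRDX6 had the narrowest interval of the first group, with a ratio of 1.67 (1.60 to 1.74), and TXN had a ratio of 1.54 (1.36 to 1.74). In the other direction, CAT had a ratio of 0.667 (0.627 to 0.708) and SOD3 of 0.693 (0.663 to 0.724). The intervals use the library totals as the only scaling, and the median ratio of all genes, 1.06, lay inside those of GPX4, GSS and PRDX5. The intervals of TXNRD1, TALDO1 and TKT held 1 but lay below that median, so the count in each direction depends on the scaling. The intervals measure the reads of 2 libraries and hold no estimate of the spread between pigs of this breed and day, so they say nothing about a condition.

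**Figure D2:**
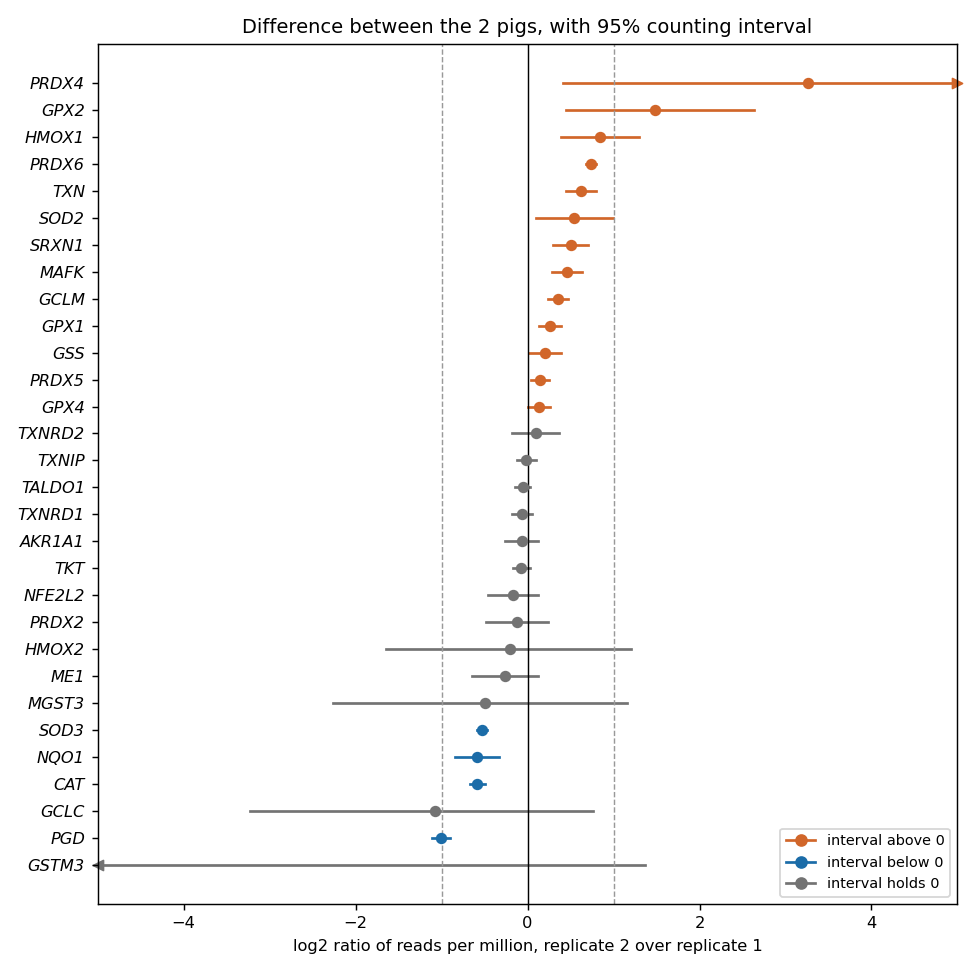
Log2 ratio of reads per 1000000, replicate 2 over replicate 1, for the 30 genes with a mean of at least 1 RPKM; points are the ratio, bars the 95% exact binomial interval (counting error only), arrows mark bars that run past the axis, dashed lines mark 2-fold, and GSTM3 has no point because replicate 2 had no reads. The bars of 13 genes lie above 0, those of 4 below it and those of 13 hold it.

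Counted without intervals, the list was divided nearly evenly between the pigs. Of the 30 genes, 14 were higher in replicate 2 and 16 in replicate 1, and the median log2 ratio was -0.04, beside 0.07 over all genes. Single log2 ratios ran from -2.32 for GSTM3 to 2.39 for PRDX4. Without regard to direction, the median size of the log2 ratio was 0.39 for the antioxidant genes and 0.27 for all genes, and above 100 RPKM in the mean it was 0.20 for 19 antioxidant genes and 0.17 for 2575 genes. Across the 30 genes the Pearson correlation of the libraries on the log2(RPKM + 1) scale was 0.970, and 0.976 across all genes, which share these 2 libraries and are not replicates. By group, the summed level of the peroxiredoxins was 3047 RPKM for replicate 1 and 4076 RPKM for replicate 2, and that of the dismutases with catalase was 2983 RPKM and 2036 RPKM. The first of these sums was carried by PRDX5 and PRDX6, while PRDX2 was slightly lower in replicate 2, and the second by CAT and SOD3, while SOD2 had the other direction.

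**Figure D3:**
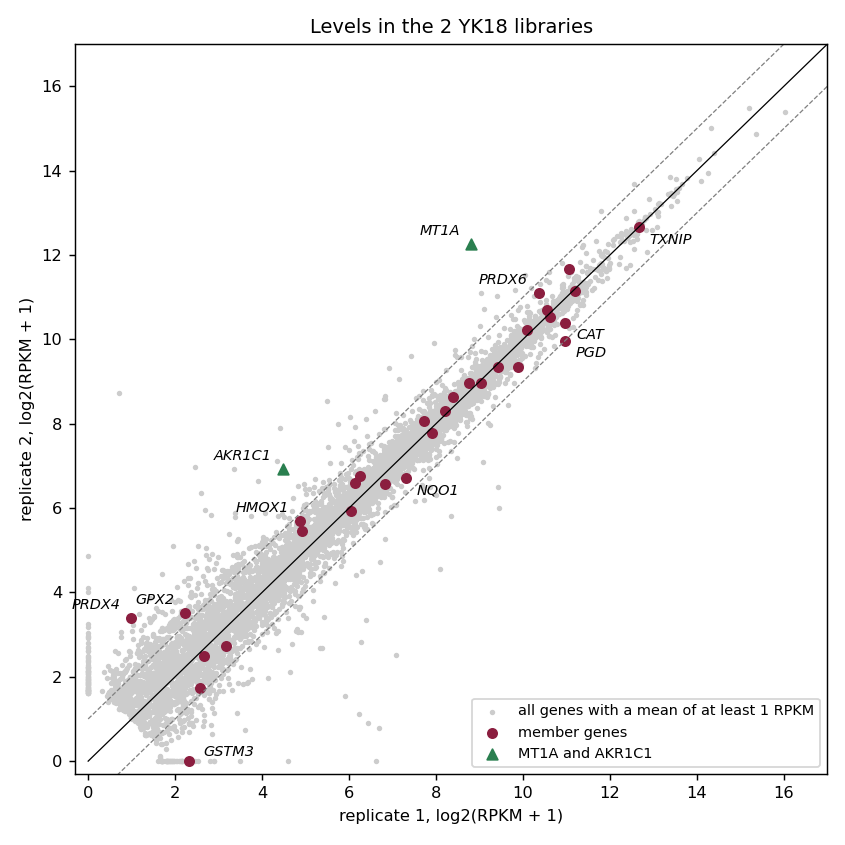
Level in replicate 1 (x axis) and replicate 2 (y axis), both as log2(RPKM + 1), of all 6476 genes with a mean of at least 1 RPKM (grey), the 30 antioxidant genes (red) and MT1A and AKR1C1 (green triangles); the solid line marks equal levels and the dashed lines 2-fold. The antioxidant genes follow the diagonal with 4 past 2-fold, and MT1A and AKR1C1 lie well above it.

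The model that the study proposes has NRF2 act on AKR1C1, beside a long non-coding RNA, with progesterone upstream of both. Its evidence for NRF2 was reporter assays with mutated antioxidant response elements in kidney and testis cells. Other NRF2 targets were set beside AKR1C1 here. AKR1C1 was at 21.2 RPKM in replicate 1 and at 120.8 RPKM in replicate 2, a ratio of 5.69 (95% exact binomial interval 3.62 to 9.30), from 23 and 123 reads. This value rests on 1 of 6 rows, since the reference gives the symbol to 2 genes and the other rows were listed at 0, and how reads shared by related copies were counted is not known. Over the same libraries, NFE2L2 had a ratio of 0.930 (0.727 to 1.09, over the summed reads of its 3 rows). This is the level of its RNA. The level and activity of the NRF2 protein, which is controlled by degradation, were not measured, so the model was not tested. As a description, 20 of the 49 genes that are commonly given as NRF2 targets were drawn up after the values had been seen, so their counts support nothing further. Of these 20, 4 had no matched row and 3 were listed at 0, and 12 reached 1 RPKM in the mean. HMOX1, GCLM, GPX2, TXN and SRXN1 were higher in replicate 2 with an interval above 1. NQO1 and PGD were higher in replicate 1 with an interval below 1. For GCLC, TXNRD1, TALDO1, TKT and ME1 the interval held 1. The 12 genes had a median log2 ratio of -0.06, and the largest ratio among them, 2.80 for GPX2, was below that of AKR1C1, with intervals that overlap.

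The other genes of the same biology were described from a list of 74 antioxidant, detoxification and NRF2-linked genes, of which 48 had a matched row, 32 were above 0 in both libraries and 14 at 0 in both. The 31 whose mean reached 1 RPKM had a median log2 ratio of -0.03. Of these 31, 2 were at least 2-fold higher in replicate 2 and 0 in replicate 1, beside 7.49% and 3.17% of all genes. They were AKR1C1 and MT1A, a metallothionein that binds zinc and copper and scavenges radicals. MT1A was at 447.8 RPKM in replicate 1 and at 4933 RPKM in replicate 2, from 418 and 4331 reads, a ratio of 11.0 (9.96 to 12.2). Metallothioneins have near-identical copies, and how their shared reads were counted is not known, so the value of this copy is uncertain.

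Among the remaining abundant genes of that list, SELENOP, the secreted selenium carrier, stood highest. It was at 5256 RPKM in replicate 1 and at 3315 RPKM in replicate 2, and GPX3, the secreted glutathione peroxidase, was at 1129.6 and 1610.4 RPKM. PARK7, a redox-sensitive protein that stabilises NRF2, was at 2017.8 and 1815.0 RPKM, and TXNL1, a thioredoxin-like protein, at 1034.8 and 1020.4 RPKM. GSK3B, a kinase that also marks NRF2 for degradation, was at 997.0 and 932.3 RPKM. Of the reductases and conjugating enzymes, UGDH was at 602.2 and 589.2 RPKM, AKR1B1 at 555.0 and 402.2 RPKM, GLO1 at 337.0 and 283.9 RPKM, PTGR1 at 302.9 and 281.4 RPKM, and AKR7A2 at 101.8 and 96.1 RPKM. ABCC3, an exporter of conjugates, was at 471.6 and 590.0 RPKM. CCS, the copper chaperone of SOD1, was at 165.4 and 123.5 RPKM although SOD1 was listed at 0. The rest of the genes over 50 RPKM ranged from GLRX5, at 51.7 and 53.3 RPKM, to OXSR1, at 347.0 and 338.2 RPKM, with TXNDC17, MSRB1, MSRA and SESN2 between them. BLVRB, biliverdin reductase B, was at 81.2 and 44.0 RPKM.

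The order of levels within the antioxidant genes held between the pigs only in part. Of 29 neighbouring pairs in the order of mean RPKM, the ranges of the pigs overlapped in 17 and did not in 12. TXNIP was apart from TXN, TALDO1 from PRDX6, GPX4 from SOD3 and TXNRD1 from AKR1A1, while PRDX6, CAT, PRDX5, TKT and PGD, from 1494 to 1748 RPKM in the mean, could not be put in order against the spread of their own 2 pigs. The order also depended on the length in the RPKM. The 29 genes with a single row above 0 had recovered lengths from 28 nt to 963 nt, with 20 under 300 nt, and the recovered length is the smallest that allows whole reads, so the true length and reads may be larger by a whole factor that is not known for each gene. TXNIP, first by RPKM, had a length of 29 nt and was rank 8 by reads, and TXN, rank 2 by RPKM, had a length of 28 nt and was rank 14 by reads. By recovered reads SOD3 came first, followed by PRDX6 and CAT. TXN was 3.11 and 4.99 times the level of TXNRD1 in RPKM, but had 0.326 and 0.524 times its reads. Ratios between the pigs do not depend on this length for a gene with a single row above 0.

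**Figure D4:**
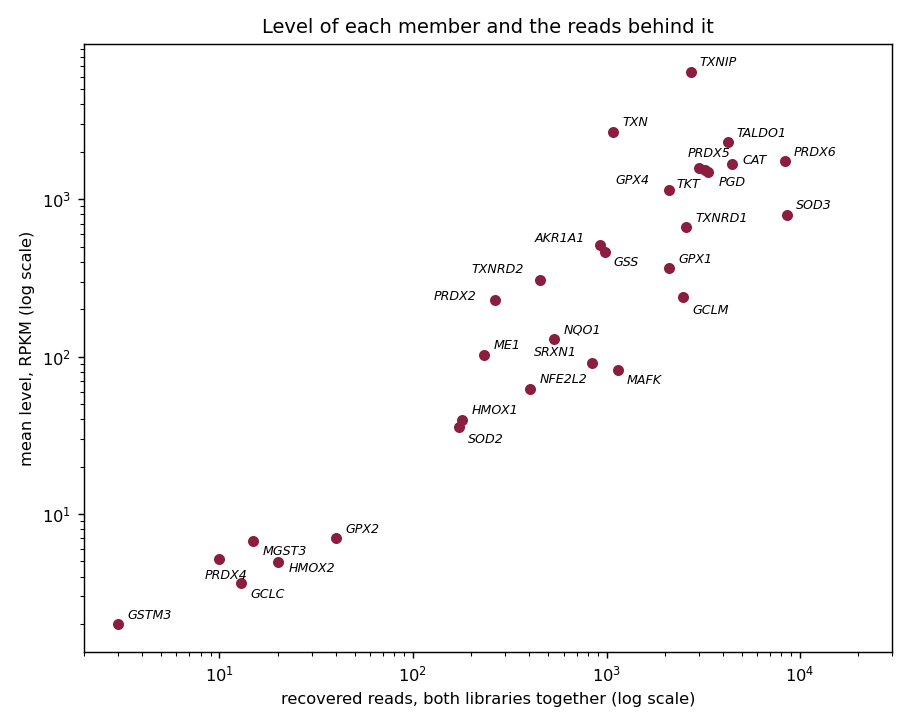
Mean level in RPKM (y axis, log scale) against the recovered reads of both libraries together (x axis, log scale) for the 30 antioxidant genes with a mean of at least 1 RPKM. TXNIP and TXN lie above the other genes with like reads, SOD3 and GCLM below them, and 6 genes rest on under 50 reads.

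Values at 0 were most frequent where a gene had several rows. Over the whole table, 70.8% of the rows of the 2833 genes with more than 1 row were listed at 0 in both libraries, against 21.1% of the rows of the 8238 genes with 1 row. Of the antioxidant genes, 6 had more than 1 row, and 5 of their 13 rows were listed at 0. These were 1 row each of KEAP1, GSTA4, MGST3, TXN2 and PRDX4, genes that also had few reads on their other row, while NFE2L2 was the gene of this kind with reads on every row. Some genes with 1 row, such as GCLC and HMOX2, had few reads as well. The 6 genes listed at 0 in both libraries all had 1 row. Why these rows are at 0 was not tested.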

How the data were processed

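An RNA-seq library from the endometrium of each of 2 Yorkshire pigs, taken at day 18 of pregnancy, was used. Reads were counted with HTSeq by the authors, who deposited them as RPKM in 1 column per library. The aligner and genome build are not given in the sources used here. Values were used as deposited, rows of a gene were summed, and symbols came from RefSeq of Sscrofa11.1, where 16072 of the 38222 mRNA accessions were found. No coordinates were used.

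Library totals, and the smallest length (up to 20000 nt) at which both libraries give whole reads, were worked out from the RPKM steps. Whole reads, to within 1e-06 reads plus 3e-09 of the reads, were found for 100% of the 25584 transcripts above 0. The procedure was tested on simulated data. Ratios are on the log2(RPKM + 1) scale over genes with a mean of at least 1 RPKM. Intervals of ratios are 95% exact binomial (Clopper-Pearson) intervals on recovered reads and compare 2 libraries, not conditions. No p-values were computed. Python 3.11.15, pandas 2.3.3, numpy 2.4.6, scipy 1.17.1 and matplotlib 3.10.9 were used.

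Every antioxidant gene was named. Genes of the wider list were named if their mean was at least 50 RPKM, if they were at least 2-fold apart, or as AKR1C1, and marker genes by sums. Some genes of these lists are not reported here. Genes and lists were chosen with earlier results of these data known. Alternatives were other pseudocounts, filters, scalings, thresholds, row choices, recovered reads, and each replicate left out. A planned search of promoters for antioxidant response elements was not made here.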

Additional observations from a re-analysis of the deposited data

How the results depend on the processing

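No paired analysis was possible because both libraries belong to the same group. With 2 pigs the spread is known only roughly, and leaving out a library leaves no ratio, so no such alternative was run for differences. The median level of the antioxidant genes, 271.7 RPKM, was 462.8 RPKM when the version of an accession had to match, 90.9 RPKM over all listed genes and 63.5 RPKM when the RPKM of each library were made to sum to 1000000, a setting that lowers every level. It ran from 266.4 to 291.3 RPKM when each replicate was left out. The count of genes above 0 in both libraries, 30, ran from 22 to 32 over all alternatives, and from 31 to 32 without each replicate. The 4 genes at least 2-fold apart became 8 at 1.5-fold and 3 to 5 under the other alternatives, where GCLC was added by smaller pseudocounts, and GPX2, PRDX4 and PGD were past 2-fold in every setting. The median log2 ratio, -0.04, was 0.094 with a mean of at least 5 RPKM, so its sign is not settled. Rescaling by the median ratio of all genes, 1.06, smaller pseudocounts and recovered reads changed the direction of none of the 30 genes. The intervals were not recomputed after rescaling.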
